A study of Rattus norvegicus with 9 samples.

Results

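The genes of hemoglobin and of the red cell were examined in rat right ventricles, as 9 named genes out of the 14506 genes that carry a feature with 1 symbol on the array. The members were Hbb and Hbb-b1, which encode beta-globin chains, Ahsp, Alas2, Slc4a1, Epb42, Rhag, Klf1 and Gata1, and all 9 had a feature. Each gene was taken at the feature annotated with its symbol alone, and at the feature with the highest mean over the 9 arrays where there were several. Rhag alone had several, 2 features with the same values on every array. The set was chosen by measured values, because beta-globin and Ahsp were high in fibrotic hearts on these same arrays. The values of the fibrotic against the non-fibrotic group are therefore given below as a description, without a test. The comparisons with the sham-operated group share arrays with that contrast, so their p-values are not independent of the choice.

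Male SD rats had either a sham operation or pulmonary artery banding (PAB), a constriction that loads the right ventricle with pressure. The banded ventricles were separated at 4 weeks by a fibrotic area of 6.5%, the F+ group lying above and the F- group below, so that both banded groups carry the same operation and differ by an observed outcome. Each group was measured on 3 Affymetrix Rat Gene 1.0 ST arrays of total RNA from frozen right ventricle. The age of these animals, whether the arrays within a group represent separate animals, and whether the ventricles were rinsed of blood before freezing are not given in the sources used here. Every p-value below therefore reflects variation among arrays that may be technical alone.

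Red cells are made in the marrow, where the factors Gata1 and Klf1 switch on the globin genes, Alas2 starts heme synthesis and Ahsp holds free alpha-globin until it pairs with beta-globin. The circulating cell has no nucleus, and its RNA is largely that of the globins, carried by young red cells called reticulocytes. The heart makes its own oxygen carrier, myoglobin, and its own heme through Alas1. In whole tissue, a larger number of red cells and more RNA per red cell cannot be told apart.

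On the rat assembly GRCr8, as annotated by RefSeq, Hbb and Hbb-b1 lie in the beta-globin cluster of chromosome 1, with Hbb-bs next to Hbb-b1, and Hbb-b2 next to Hbb. The 250 bases before the annotated start of Hbb, Hbb-b1 and Alas2 are shown because these genes had high values together on the same F+ array. Capitals mark the CACCC box searched as CACACCC, the CCAAT box searched as CCAAT, and the GATA motif searched as AGATAA, as AGATAG, as TGATAA or as TGATAG, each on both strands. A match on the strand opposite to the printed one appears as its reverse complement, as in ATTGG for CCAAT, and adjoining matches run together.

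Hbb, chr1:167663722-167663971, minus strand: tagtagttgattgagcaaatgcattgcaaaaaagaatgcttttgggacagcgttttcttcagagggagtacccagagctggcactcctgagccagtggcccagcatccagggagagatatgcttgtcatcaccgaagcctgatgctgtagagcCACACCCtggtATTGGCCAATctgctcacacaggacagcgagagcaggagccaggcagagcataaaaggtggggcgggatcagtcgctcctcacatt

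Hbb-b1, chr1:167643521-167643770, minus strand: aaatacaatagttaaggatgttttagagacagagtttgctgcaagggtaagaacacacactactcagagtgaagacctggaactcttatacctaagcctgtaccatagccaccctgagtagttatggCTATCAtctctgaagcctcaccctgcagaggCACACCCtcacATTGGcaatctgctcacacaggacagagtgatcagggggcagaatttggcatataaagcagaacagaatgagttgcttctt

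Alas2, chrX:22895200-22895449, plus strand: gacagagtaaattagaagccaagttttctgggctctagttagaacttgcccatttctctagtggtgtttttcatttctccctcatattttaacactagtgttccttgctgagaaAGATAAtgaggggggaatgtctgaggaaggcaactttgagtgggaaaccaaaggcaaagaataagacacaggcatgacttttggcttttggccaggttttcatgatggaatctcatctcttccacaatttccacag

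The CACACCC match lay 97 bases before the start of Hbb and 92 bases before that of Hbb-b1, and the sequence before Alas2 held 1 GATA match at 136 bases. Of the 7 members in the promoter table, CACACCC was found in 4, against 6.12% of all 33469 promoters. The GATA motif was found in 5 of the 7, against 27.0%, and CCAAT in 4, against 34.0%. These are matches of letters and say nothing of binding. Hbb and Hbb-b1, which are close copies of each other, both count for CACACCC and for CCAAT. The counts are therefore not of independent promoters.

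The arrays had nearly equal medians, from 33.4 to 33.9, and the deposited values ran from 1 to 190.4 without a stated scale. All 8 cardiomyocyte markers were measured, among them Myh6, a myosin heavy chain, at 144.6 to 161.5. Sham array 2 stood apart in atrial markers. Its value of Bmp10, a growth factor of the atrium, was 85.8, against 15.5 to 18.9 on the other 8 arrays. The atrial peptide gene Nppa was 135.8 on that array and 155.6 on F- array 1, against 57.7 and 59.7 elsewhere in sham and 134.3 to 149.5 in F+. F- array 1 also stood above its group in the sum of the 5 atrial markers measured, at 353.2 against 281.6 and 289.4. Without sham array 2 every difference of a member from the sham-operated group had the same direction. Limma called 1 of 29215 features between the F+ and F- groups (0.00342%), 0 between F- and sham (0%) and 0 between F+ and sham (0%). At an unadjusted p under 0.05 limma counted 7.41%, 6.03% and 7.40% of features in the same order.

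The beta-globin genes had their highest values in the fibrotic ventricles. Hbb gave 107.8, 64.2 and 76.8 on F+ arrays 1 to 3. Its values were 45.7, 39.6 and 46.4 in F- and 47.8, 52.3 and 52.6 in sham. The 3 groups did not overlap, with F- lowest, sham between and F+ highest. The means were 82.9 ± 22.4 (SD, n = 3) in F+, 43.9 ± 3.74 (SD, n = 3) in F- and 50.9 ± 2.69 (SD, n = 3) in sham. F+ array 1 was the highest of all 9. Hbb was 1.85-fold higher in F+ than in F-, and 1.60-fold higher without F+ array 1. Folds are 2 to the power of the difference of mean log2 values. They therefore differ from the ratio of the printed means, which was 1.89 for Hbb between F+ and F-. The unstated scale of the deposited values sets their size.

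Against the sham-operated group, the log2 difference of Hbb was 0.67 in F+ (standard error 0.17, limma adjusted p = 0.600), with a 95% confidence interval from 0.28 to 1.07. It was 0.47 without F+ array 1. In F- it was -0.22 (standard error 0.17, limma adjusted p = 0.767), with a 95% confidence interval from -0.61 to 0.18, and -0.14 without F- array 2. Neither passed the threshold of 0.05.

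Hbb-b1 followed the same order among the F+ arrays, at 103.5, 56.9 and 66.3. It gave 41, 32 and 41.9 in F- and 39.1, 43.3 and 45.9 in sham. All F+ arrays lay above the other 6, but the F- and sham arrays overlapped. Its log2 difference was 0.94 between F+ and F- and 0.69 without F+ array 1. From the sham-operated group it was 0.78 in F+ (standard error 0.21, limma adjusted p = 0.604) and -0.17 in F- (adjusted p = 0.848 from limma). The value in F- was -0.042 without F- array 2. Hbb and Hbb-b1 are close copies of each other, so the features may share signal and are not separate evidence. A further beta-globin feature, 10724311, carries the symbols Hbb-bs and Hbb-b1 at once and cannot be given to 1 gene. It read 91.2, 56.5 and 63.3 in F+, 39.4, 35.6 and 39 in F- and 42.6 to 43 in sham, again with no overlap between the groups.

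**Figure D1:**
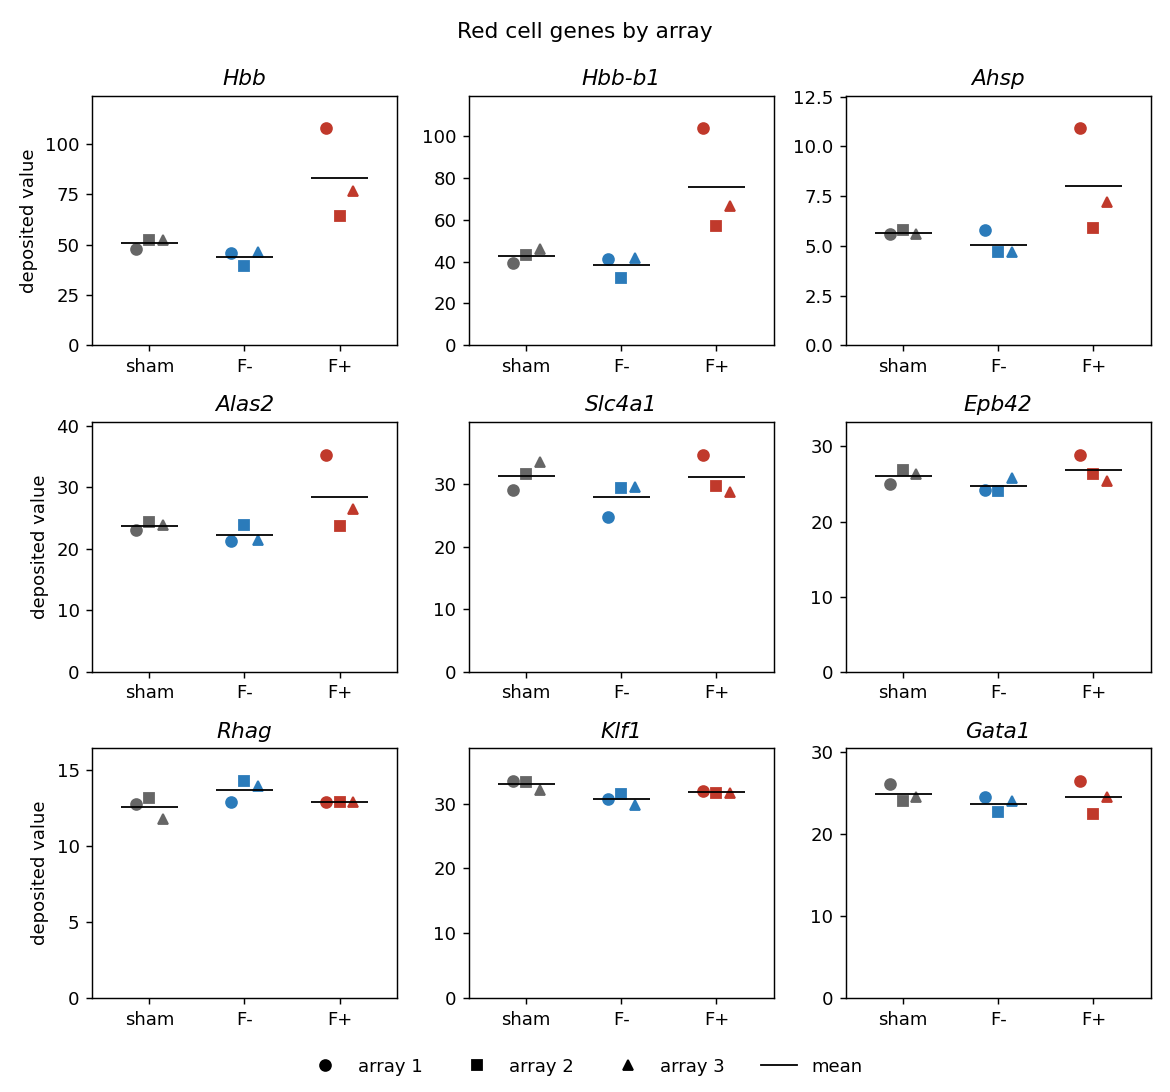
Deposited values (vertical axes, from 0) of the 9 red cell genes on each array of the sham, F- and F+ groups, drawn as a circle for array 1, a square for array 2 and a triangle for array 3, the group mean being a line. F+ array 1 holds the highest value of Hbb (107.8), Hbb-b1 (103.5), Ahsp (10.9) and Alas2 (35.3), while Klf1 and Rhag are nearly level.

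Alpha-globin, the partner chain, was read by 2 features that carry both Hba-a1 and Hba-a2 and so stand for neither gene alone. The first of them gave 178.7, 141.3 and 156.6 in F+, 109.5, 90.4 and 108.7 in F- and 110.4, 121.3 and 122.2 in sham. The order of the F+ arrays was that of beta-globin, and F- array 2 was the lowest of all 9 arrays for both chains. As for Hbb, all F- arrays of this feature lay below and all F+ arrays above the sham arrays, whereas in the second feature F- and sham overlapped. The log2 difference between F+ and F- was 0.63, and 0.54 without F+ array 1. For the second feature these values were 0.58 and 0.49. Hba-a3, a further gene of the alpha cluster with a feature of its own, gave 37.6, 33.9 and 41.4 in F+, 27.3 to 31.4 in F- and 29.5 to 31.4 in sham. All F+ arrays of Hba-a3 lay above the other 6, with array 3 and not array 1 the highest. Its log2 difference from the sham-operated group was 0.29 in F+ (standard error 0.080, unadjusted p = 0.0068, and not past the adjusted threshold of limma).

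Globin genes of the embryo did not share this pattern. Hbe1 gave 19.8 to 20.5 in F+, 19 to 21.8 in F- and 20.5 to 23.5 in sham. Hbg1 gave 17.8, 14.1 and 11.7 in F+, which held both the highest and the lowest of its 9 values, against 12.5 to 17.1 on the other arrays. Hbe2 was 8.7 to 9.6 in F+, 8.8 on each F- array and 7.6 to 8.8 in sham. Ngb, the globin of neurons, was 29 to 30.4 in F+, 29.3 to 30.4 in F- and 30.4 to 32.5 in sham. The globins made by the tissue itself are Mb and Cygb. Mb, which encodes myoglobin, gave 172.2 to 176.9 in F+, 174.2 to 175.2 in F- and 174.8 to 177.6 in sham. Its log2 difference between F+ and F- was -0.0062, and the one between F- and sham, -0.0076, turned positive with median centring. Cygb, which encodes the cytoglobin of fibroblasts, was 82 to 84.9 in F+, above 77.1 to 79 in F- and 76.8 to 79 in sham. Its log2 difference from the sham-operated group was 0.093 in F+ (standard error 0.026, adjusted p = 0.604 from limma). Of the 7 other globin genes measured, 0 passed limma in any comparison, and 2, 0 and 3 had an unadjusted p under 0.05 in F+ against F-, F- against sham and F+ against sham, where 7.41%, 6.03% and 7.40% of all features did.

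**Figure D2:**
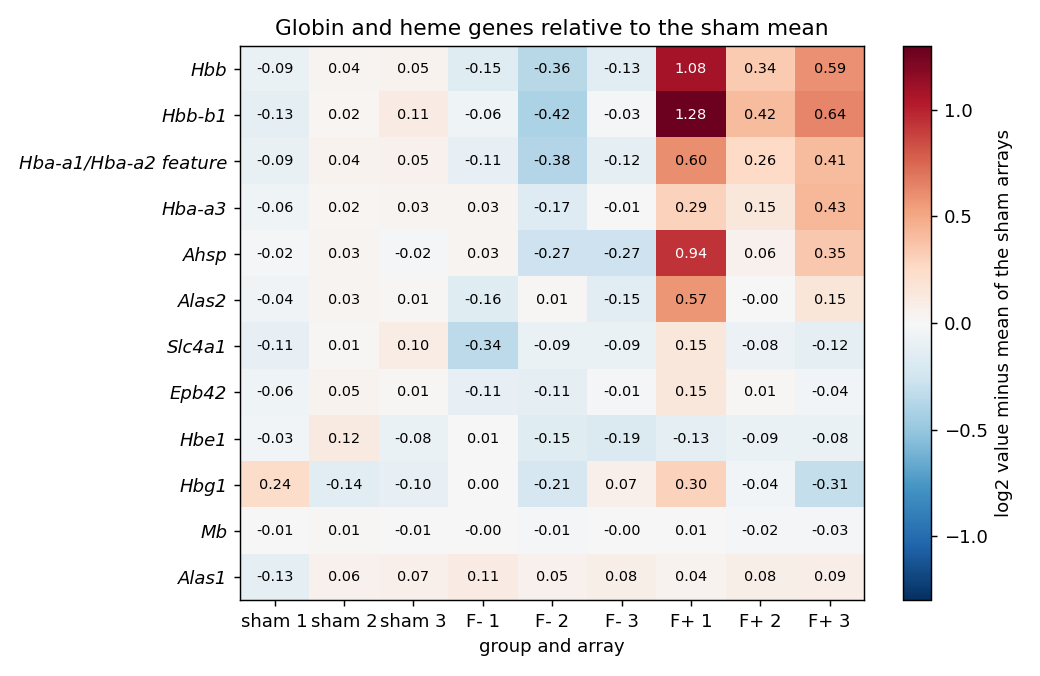
Log2 deposited value minus the mean of the sham arrays (color and number in each cell) for globin and heme genes (rows) on the 9 arrays (columns); the row named Hba-a1/Hba-a2 is the first feature shared by both genes. Hbb, Hbb-b1 and Ahsp reach 1.08, 1.28 and 0.94 on F+ array 1, while Mb stays between -0.030 and 0.015 on all arrays.

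Among the 9 members, Ahsp and Alas2, which serve hemoglobin assembly, came next to Hbb and Hbb-b1 in the size of the difference between F+ and F-, and both differences were smaller without F+ array 1. Ahsp, the chaperone of alpha-globin, gave 10.9, 5.9 and 7.2 in F+, 5.8, 4.7 and 4.7 in F- and 5.6, 5.8 and 5.6 in sham. F+ array 2, at 5.9, lay only just above the highest of the other arrays, 5.8. The fold between F+ and F- was 1.53, and 1.29 without F+ array 1. From the sham-operated group the log2 difference in F+ was 0.45 (standard error 0.20, limma adjusted p = 0.676), and it was 0.20 without F+ array 1. This feature had a mean of 6.24 over the 9 arrays, in the dimmest 2.90% of all features.

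Alas2, the erythroid form of the enzyme that starts heme synthesis, gave 35.3, 23.7 and 26.4 in F+. It gave 21.2, 23.9 and 21.4 in F- and 23, 24.3 and 23.9 in sham. F+ array 2 lay within the range of both other groups, and F+ array 1 stood apart. The log2 difference between F+ and F- was 0.34 and became 0.18 without F+ array 1. The one between F+ and sham was 0.24 (standard error 0.13, limma adjusted p = 0.707) and became 0.076. Alas1, the form used by the heart and other tissues, gave 133.2 to 137.7 in F+ and 134.2 to 139.3 in F-. On sham array 1 it was 118.2, against 134.8 and 135.8 elsewhere in sham.

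Members of the red cell membrane showed smaller differences, and these were not in one direction. Slc4a1, the band 3 anion exchanger that anchors the membrane skeleton, gave 34.7, 29.7 and 28.8 in F+, 24.7, 29.4 and 29.5 in F- and 29, 31.6 and 33.5 in sham. All groups overlapped, and F- array 1 was the lowest of the 9. Its log2 difference was 0.16 between F+ and F- and -0.17 between F- and sham (standard error 0.098, adjusted p = 0.743 from limma). Without F- array 1 these were 0.072 and -0.088, and the first was 0.075 without F+ array 1. Between F+ and sham it was -0.016, and from -0.098 to 0.036 as each array was left out.

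Epb42, the protein 4.2 that binds band 3, gave 28.9, 26.3 and 25.4 in F+, 24.2, 24.1 and 25.8 in F- and 25, 26.9 and 26.3 in sham. The log2 difference between F+ and F- was 0.12, and 0.066 without F+ array 1. Rhag, the Rh-associated glycoprotein of the same membrane, went the other way. It gave 12.9 on all 3 F+ arrays, 12.9, 14.3 and 14 in F- and 12.8, 13.2 and 11.8 in sham. Rhag was the only member with a higher mean in F- than in sham, at a log2 difference of 0.12 (standard error 0.052, limma adjusted p = 0.743), with a 95% confidence interval from 0.0049 to 0.24, and 0.078 without sham array 3.

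The transcription factors of the red cell lineage lay close together across the groups. Klf1, which drives adult beta-globin, gave 32, 31.6 and 31.6 in F+, 30.7, 31.5 and 29.8 in F- and 33.5, 33.3 and 32.1 in sham. Each banded group lay below every sham array, and F- lay below F+. Its log2 difference from the sham-operated group was -0.10 in F- (standard error 0.030, limma adjusted p = 0.743), with a 95% confidence interval from -0.17 to -0.036 and the smallest unadjusted p among the members there (0.00821). In F+ it was -0.055 (adjusted p = 0.707 from limma). Gata1, which also serves platelet precursors and mast cells, gave 26.5, 22.5 and 24.5 in F+, 24.5, 22.7 and 24 in F- and 26.1, 24.1 and 24.5 in sham. All groups overlapped, and the log2 difference of 0.043 between F+ and F- became -0.015 without F+ array 1.

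As a set, 8 of the 9 members had a higher mean in F+ than in F-, where 48.2% of all features did, and Rhag was the exception. The median log2 difference was 0.16, against -0.0023 over all features, and it was 0.075 without F+ array 1, with 7 of the 9 higher. For 4 members, Hbb, Hbb-b1, Ahsp and Klf1, all F+ arrays lay above all F- arrays, a share of 4.46% over all features, and for 0 members all F+ arrays lay below them (5.28%). These counts describe the contrast by which the set was chosen. Relative to sham, 6 of the 9 had a higher mean in F+ (47.5% of features), with a median of 0.042 against -0.0035, and 3 of them, Hbb, Hbb-b1 and Ahsp, had no overlap (5.69%). That median ran from 0.036 without F+ array 1 to 0.082 without F+ array 3, and the members with a higher mean from 5 without F+ array 1 to 8 without F+ array 2. Klf1 was the 1 member with all F+ arrays below the sham arrays (6.56%). In F-, 1 of the 9 had a higher mean than in sham (48.2%), with a median of -0.10 against -0.0025 over all features, and for Hbb and Klf1 all F- arrays lay below the sham arrays (4.64%), while for 0 members they lay above (5.15%). None of the 9 passed limma in the comparisons with sham. At an unadjusted p under 0.05 there were 2 in F+, Hbb and Hbb-b1 (7.40% of all features), and 2 in F-, Klf1 and Rhag (6.03% of all features).

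**Figure D3:**
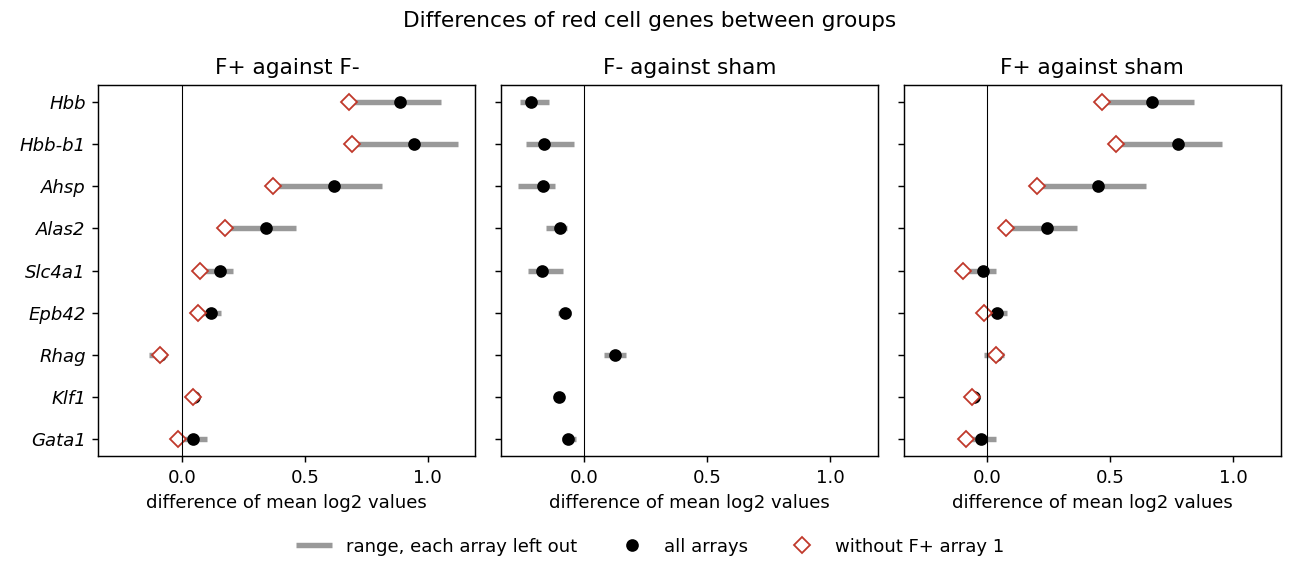
Differences of mean log2 values (horizontal axes) of the 9 red cell genes in the 3 comparisons, with all arrays (black points), without F+ array 1 (open diamonds) and the range as each array of the 2 groups is left out (grey bars). The bars of Hbb and Hbb-b1 stay above 0 in both comparisons of F+, reaching down to 0.47 for Hbb against sham, whereas those of Gata1 cross 0.

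By the SD of the deposited values, every member except Klf1 and Rhag varied more within the F+ group than within the other groups. Klf1 and Rhag varied less. The excess was small for Slc4a1, with an SD of 3.18 in F+, 2.74 in F- and 2.26 in sham. F+ array 1 held the highest of the 9 values for 7 of the 9 members, all but Rhag and Klf1, where 9.39% of all features had their highest value on that array. The order of F+ array 1 above array 3 and array 3 above array 2 was seen in 5 members, Hbb, Hbb-b1, Ahsp, Alas2 and Gata1, and in 13.1% of all features. It also held for the alpha-globin features shared by Hba-a1 and Hba-a2. Slc4a1 and Epb42 were instead higher on F+ array 2 than on F+ array 3. Among genes with a feature of 1 symbol, Hbb-b1 was closest to Hbb over the 9 arrays, with a Pearson's r of 0.99 between log2 values. The r was 0.94 for Ahsp, 0.88 for Alas2, 0.78 for Epb42, 0.51 for Slc4a1, 0.46 for Gata1, 0.13 for Klf1 and -0.34 for Rhag. These values describe 9 arrays that share 3 groups, with F+ array 1 as an extreme point, and carry no test.

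Among 14490 other genes, the 8 most like Hbb by this measure were Cxcl12, Ndrg1, Cmahp, Cep89, Ikbke, Golga2, Sh2b2 and Fli1. Their r ran from 0.92 to 0.97. Only features with 1 symbol were ranked. The alpha-globin features shared by Hba-a1 and Hba-a2 and the feature shared by Hbb-bs and Hbb-b1 were therefore left out. The list does not show that these genes were nearer to Hbb than alpha-globin was. Cxcl12, a chemokine, gave 99.7, 94.8 and 94.7 in F+, 86.9 to 88 in F- and 88.6 to 90.7 in sham. Ndrg1, a gene that responds to low oxygen, gave 75.7, 67.9 and 67.3 in F+, 58.9 to 61.5 in F- and 60.3 to 64 in sham. Fli1, a factor of endothelium and blood cells, gave 72.8, 69.9 and 73.6 in F+, 66.5 to 67.1 in F- and 68.6 to 69.1 in sham. In all 3 the F+ arrays lay above the other 6. These genes were picked for likeness to Hbb, whose F+ arrays also lay above the rest, so this is no separate result. Over all features, 4.46% had all F+ arrays above the F- arrays and 5.69% had them above the sham arrays. Of the 8, Cmahp alone overlapped, with 24.3 on F+ array 2 and on every sham array.

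Other genes of the red cell, of heme and of iron were measured as 84 genes in 8 lists, which include the 7 other globins above. Limma passed 0 of the 84 in each comparison. At an unadjusted p under 0.05 there were 10 higher and 2 lower in F+ than in F- (14.3%, against 7.41% of all features), 0 higher and 1 lower in F- than in sham (1.19%, against 6.03%), and 9 higher and 5 lower in F+ than in sham (16.7%, against 7.40%). Between F+ and F- 45 of the 84 had a higher mean, against 48.2% of all features. That share is the background for the counts of each list below, and was also 48.2% between F- and sham. The median log2 differences were 0.0077, -0.0097 and 0.0018 in F+ against F-, F- against sham and F+ against sham.

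Heme synthesis beyond Alas2 did not follow the globins. Of 12 such genes, 9 had lower values in F+ than in F-, with a median of -0.028. Fech, which puts iron into heme, gave 71.3, 68.6 and 63.4 in F+ and 71.3 to 76 in F-, a log2 difference of -0.11 (standard error 0.048). Urod had -0.088 in the same comparison and Cpox, another enzyme of the pathway, had -0.084 between F+ and sham. Abcb6, a porphyrin transporter, gave 60.4 to 62.2 in F+ and 55.4 to 56.8 in sham.

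Of 13 genes of the red cell membrane and skeleton, 7 had higher values in F+ than in F-, and 2 had higher values in F- than in sham. The glucose transporter Slc2a1 gave 79.5, 79.1 and 75.7 in F+, 62.2 to 65.5 in F- and 63.8, 75.5 and 74.5 in sham. Slc2a1 is used by many tissues, as are the water channel Aqp1, Gypc and Xk, whose log2 differences between F+ and sham were -0.13, -0.10 and -0.15. The skeleton genes Ank1 and Epb41, which red cells share with muscle, differed between F+ and F- by -0.059 and 0.042.

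Of 10 transcription factors of the erythroid lineage, 9 had higher values in F+ than in F-, where 48.2% of all features did. Their median was 0.061, against -0.0023 over all features. Limma passed 0, and 1 had an unadjusted p under 0.05 (7.41% of all features). Gata2, which is also made in endothelium and mast cells, gave 52.2, 48.5 and 47.3 in F+ and 44.5 to 47.3 in F-. Tal1, a partner of Gata1, differed by 0.027 between these groups, and Runx1 by 0.19 between F+ and sham. Of 7 genes of erythropoietin signaling, 2 had higher values in F+ than in F-. Epor, the receptor, gave 35.6 to 38.1 in F+ and 36.3 to 38.5 in F-. Epo gave 18.9 to 21.3 in F-, below 22.3 to 23.6 in sham, a log2 difference of -0.19 (standard error 0.070, adjusted p = 0.743 from limma). Jak2, the kinase of the receptor, gave 56.7 to 59.9 in F+ and 54.5 to 55 in sham.

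Of 14 red cell enzymes and maturation genes, 9 had higher values in F+ than in F-, with a median of 0.015. Blvrb, a reductase of the red cell and other tissues, had -0.17 and Alox15, a lipoxygenase of reticulocytes, had 0.11. Car1, a carbonic anhydrase abundant in red cells, gave 18.9 to 20.5 in F+ and 19.3 to 21.3 in F-.

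Genes that take up iron and clear hemoglobin were mixed. Of 12 iron genes, 5 had higher values in F+ than in F-. Tfrc, the transferrin receptor, gave 70.7 to 85.5 in F+, 77.8 to 87.6 in F- and 42.4, 74.8 and 75.1 in sham, with sham array 1 far below the others. The ferroxidase Cp had a log2 difference of 0.28 between F+ and F- (standard error 0.079) and the iron exporter Slc40a1 one of 0.20. Hamp, the hormone hepcidin, had -0.36 between F+ and sham (standard error 0.14, adjusted p = 0.655 from limma). Of 9 genes of heme and hemoglobin clearance, 4 had higher values in F+ than in F-. Cd163, the macrophage receptor for hemoglobin, gave 56.1, 70.7 and 66.9 in F+, 55.3, 45.8 and 47.4 in F- and 52.5 to 57.3 in sham. Its lowest F+ value was on array 1, where Hbb was highest. Hmox1, which degrades heme, gave 45.7, 48.3 and 39.3 in F+ and 45.3, 30.3 and 35.8 in F-. Hp, which encodes haptoglobin, lay between 20.5 and 22.2 on all arrays.

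Markers of other blood cells were read beside the globins. Of 5 platelet markers measured of 12 listed, 4 had higher values in F+ than in F-, and their summed value was 140.9 to 145.4 in F+, 134.7 to 139.5 in F- and 137.5 to 146.2 in sham. Pf4, a platelet chemokine, gave 38.8, 38.7 and 39.9 in F+, 37.6, 33.5 and 35 in F- and 36.8 to 40.2 in sham. F+ array 1 was not the highest for the platelet sum or for Pf4. Of 12 neutrophil markers, 7 were higher in F+ than in F-, and their sums overlapped, at 272.7 to 289 in F+, 275.9 to 296.7 in F- and 282.3 to 293.7 in sham. S100a8, a neutrophil calcium-binding protein, was 6.7 to 8.1 in F+ and 7.3 to 7.5 in F-. Lcn2, an iron-binding carrier that many tissues also make, had the smallest p of the list and lower values in F+, at 31.4, 30.5 and 33.8 against 49.6, 55.4 and 43.1 in F- and 43.1 to 46.4 in sham. The F+ arrays of Lcn2 lay below all others, with log2 differences of -0.62 from F- (standard error 0.088, unadjusted p = 0.00012, adjusted p = 0.318 from limma) and -0.47 from sham. Without Lcn2, a sum formed after its values were seen, the other 11 markers summed to 257.6, 242.2 and 249.5 in F+, 247.1, 239.9 and 232.8 in F- and 238.2 to 250.6 in sham. That sum overlapped between the groups too and was highest on F+ array 1. It had the same order of F+ arrays as Hbb, an order seen in 13.1% of all features. The full neutrophil sum, at 289, 272.7 and 283.3, and the T and NK cell sum, at 383.7, 351.3 and 367.2, had that order too. The sums of 12 T and NK cell markers, at 351.3 to 383.7 in F+ and 347.6 to 398.9 in F-, and of 5 B cell markers, at 142.1 to 146.2 and 142.6 to 156.4, overlapped too. Over these 34 blood cell genes limma passed 0, and 3, 0 and 2 had an unadjusted p under 0.05 in F+ against F-, F- against sham and F+ against sham. These are 8.82%, 0% and 5.88% of the genes, close to or below the 7.41%, 6.03% and 7.40% of all features.

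Of 9 mast cell markers measured of 10 listed, limma passed 0 between F+ and F-, and 3 had an unadjusted p under 0.05 (7.41% of all features). In 8 of the 9 the mean was higher in F+ than in F- (48.2% of all features), and Kit, at a log2 difference of -0.10, was the exception. Their sum was 232, 265.9 and 233.4 in F+, 212.3 to 223.6 in F- and 214.6 to 226.8 in sham. The mast cell sum was highest on F+ array 2, where Hbb, Hbb-b1 and alpha-globin were lowest among the F+ arrays. The sum of the cardiomyocyte markers was 1218 to 1238 in F+, 1237 to 1252 in F- and 1217 to 1243 in sham. The part of platelets, neutrophils, mast cells and cardiomyocytes in the values of the red cell genes was not tested.

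**Figure D4:**
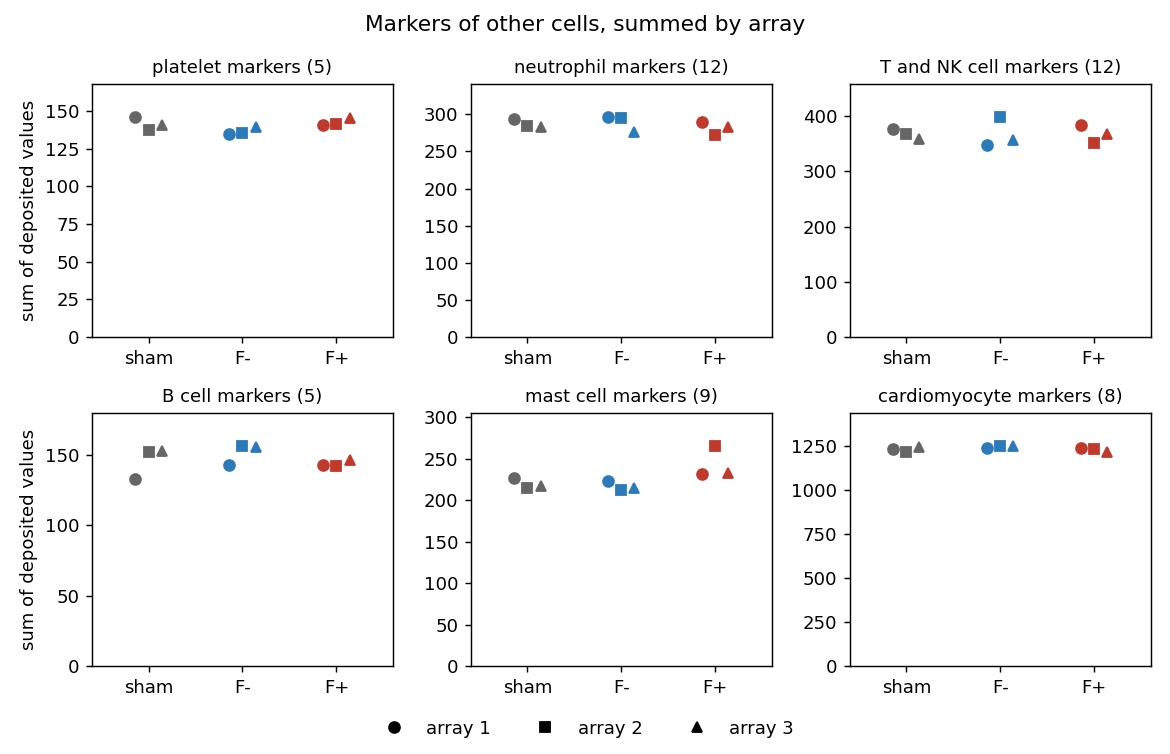
Sum of deposited values (vertical axes, from 0) over the measured markers of 6 other cell types (number of genes in parentheses) on each array of the sham, F- and F+ groups, drawn as a circle for array 1, a square for array 2 and a triangle for array 3. The mast cell sum is highest on F+ array 2 (265.9), and the neutrophil sums of the 3 groups overlap.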

How the data were processed

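Right ventricles were measured on 9 Affymetrix Rat Gene 1.0 ST arrays. The authors deposited 1 signal intensity per feature and array. The labels name biotinylated cRNA and the study's methods sense-strand cDNA as the labeled material. Summarization, normalization and scale are not given in the sources used here, although the medians of the arrays are nearly equal. Of 29215 features, 15310 carried 1 symbol in the platform annotation, 323 several and 13582 none listed. By gene ID, 15279 matched RefSeq (GRCr8), which changed 0 symbols. All 9 columns were used, and their small number limits the precision.

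Values were taken as log2 and fitted with limma 3.58.1 (lmFit, eBayes) in R 4.3.3, with 1 mean per group, with Benjamini-Hochberg adjustment across every feature and a threshold of 0.05. The fit was tested on simulated data. Plots used Python 3.11.15 and matplotlib 3.10.9. Members and lists were chosen with earlier results of these data known. Named were all members, the other globins, up to 4 genes of each list with the smallest unadjusted p, a set of known red cell, iron and blood genes, and the 8 genes most like Hbb. Car1, named outside this rule, was chosen after its values were seen. Alternatives were quantile normalization, a fit without the dimmest 33.3% of features, median centring, 1 symbol only, the replicate block, the 2 groups alone, a variance trend, arithmetic means, all features of a gene, and each array left out. Square roots, untransformed values and the neutrophil sum without Lcn2 were added after seeing the data.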

Additional observations from a re-analysis of the deposited data

Results flagged for a closer look

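Hbb lay on opposite sides of the sham-operated group in the banded groups, every F+ array lying above and every F- array below all sham arrays. The log2 difference was 0.67 in F+ and -0.22 in F-. The difference between these effects was not tested, since it is the contrast by which the gene was chosen. Over all features, 0.123% showed this arrangement and 0.116% the opposite one. Those features were not chosen for high values in F+, so the share does not measure how rare the arrangement is for Hbb. No other member showed the arrangement. It was shown by 2 globin features that carry 2 symbols each. These were the one shared by Hbb-bs and Hbb-b1 and the first of those shared by Hba-a1 and Hba-a2.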

How the results depend on the processing

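The square roots of the values run from 1 to 13.8, and on that scale the median difference of the members was 0.29 between F+ and F- and -0.16 between F- and sham, against 0.16 and -0.10 on the log2 scale. Were they squared log2 intensities, Hbb would be 5.39-fold higher in F+ than in F-, in place of 1.85-fold. Between F+ and F- the 1 feature called by limma became 3 without the dimmest features, with 1 symbol only, with the variance trend and with untransformed values. It became 0 with the replicate block and with only the 2 groups compared, and ranged from 0 to 3 as each array was left out, with 3 without F- array 1 and 0 without any other single array, sham arrays included. Between F+ and sham the count of 0 became 1 with only the 2 groups compared. The deviations of same-numbered arrays correlated between -0.21 and 0.053, and those of arrays with different numbers between -0.12 and 0.26. These values cannot show whether the numbers pair the arrays. No member was called by limma with or without the block. Of the differences from sham, those of F+ changed sign for Slc4a1 (-0.098 to 0.036), Epb42 (-0.012 to 0.082), Rhag (-0.011 to 0.070) and Gata1 (-0.084 to 0.034) as each array was left out. No sign of a member changed with quantile normalization or median centring. Over the counts of features and members and the medians of the members, 108 values under an alternative lay within 1.5 times the count, or within 1 SD between arrays of the median, and 18 did not. The cause was not tested. In all, 4 of the 9 members lay among the dimmest 33.3% of features.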
